A study of Mus musculus with 14 samples.

Results

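The Zfp genes encode a large set of mouse zinc finger proteins that share a naming prefix. The 242 described here were chosen on measured values: they are the protein-coding genes of the culture table whose symbol is Zfp followed by a number and whose mean over the 8 culture libraries was at least 5 TPM (a transcript level corrected for gene length and for the library total). They were 242 of 366 protein-coding genes with such a symbol and 242 of 20875 genes listed in the table. Just inside the level stood Zfp27 at a mean of 5.33 TPM, Zfp385a at 5.09 and Zfp41 at 5.03, and just outside it Zfp873 at 4.96, Zfp493 at 4.96 and Zfp994 at 4.94. Of the members, 216 reached a mean of 5 TPM in each culture group, while 2 were below it in medium, 23 with antibodies and 3 with antibodies and TRAIL.

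RNA was sequenced from mouse cells labelled as primary CD4 T cells, in a study of TRAIL, the ligand of a death receptor, and of deletion of its receptor in T cells. The culture libraries came from lymph node of wild-type C57BL/6 mice, per the labels, and were kept in medium (n = 2), given antibodies to CD3 and CD28 at a labelled 1 mg/ml (n = 3) or given those antibodies with TRAIL at 10 ug/ml (n = 3). The mouse libraries came from spleen of C57BL/6 mice that all carried the floxed TRAIL receptor gene per their titles: floxed mice given vehicle (n = 1), floxed mice given TRAIL (n = 3) and mice labelled Lck-Cre with the floxed gene, given TRAIL (n = 2). The second name of Lck-Cre replicate 1 carries no mark of TRAIL, unlike that of replicate 2, so its treatment rests on its title alone. Lck-Cre drives recombination in cells that use the Lck promoter, chiefly T cells, so other cells of the spleen keep the gene. No label says whether replicates were separate cultures or animals, or gives an age, so p-values measure only the spread between these libraries.

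A C2H2 zinc finger is a small fold held by a zinc ion between a pair of cysteines and a pair of histidines, and arrays of such fingers read DNA sequence. Many mouse Zfp proteins also carry a KRAB domain, which recruits TRIM28 and the histone methyltransferase SETDB1 to silence chromatin, often at retroviral elements. Zfp36, Zfp36l1 and Zfp36l2 differ from these: their CCCH fingers bind AU-rich elements in messenger RNA and bring in the deadenylation machinery, and in lymphocytes they restrain cytokine and growth transcripts.

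The libraries held 19.2 to 56.9 M reads, and a culture gene of median length at 5 TPM had 102.1 to 178.1 reads behind it. Antibody replicate 1 stood apart from the other antibody libraries: its median of ratios to all culture libraries was -0.30 on the log2 scale, against -0.12 and -0.14. T cell markers summed to 3480 to 3490 TPM in medium, 3330 to 3370 with antibodies and 3020 to 3090 with antibodies and TRAIL. Markers of other cells were present in culture too. The 10 B cell markers summed to 1580 to 1620 TPM in medium, 262 to 317 with antibodies and 1370 to 1390 with antibodies and TRAIL, and the 10 macrophage markers to 1080 to 1160, 22.0 to 26.0 and 320 to 390 TPM. The 8 T cell markers summed to 418 to 1590 TPM in the mouse libraries, while the 10 neutrophil markers summed to 17900 to 96800 TPM and 7 erythroid markers listed in both tables to 2070 to 22000 TPM, so these libraries did not have the make-up of pure CD4 T cells. The pair of CD8 genes summed to 77.7 to 92.4 TPM in culture. No marker gene in the tables was at 0 throughout a group.

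Translated coding sequences of the GENCODE vM21 annotation placed 126 members among C2H2 proteins with a KRAB pattern and 110 among C2H2 proteins in which none was found. Another 3 (Zfp36, Zfp36l1, Zfp36l2) had CCCH fingers, and 3 (Zfp330, Zfp703, Zfp839) matched neither finger pattern. The members had a median of 10 C2H2 fingers, and Zfp142 had the most, with 36. KRAB members had a median of 12 fingers and a median level of 17.9 TPM over the culture libraries, against 7 fingers and 30.5 TPM for C2H2 members without the pattern. In the mouse libraries, which played no part in the choice of members, the medians of the same classes were 14.0 and 22.6 TPM, and all 242 members were listed.

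**Figure D1:**
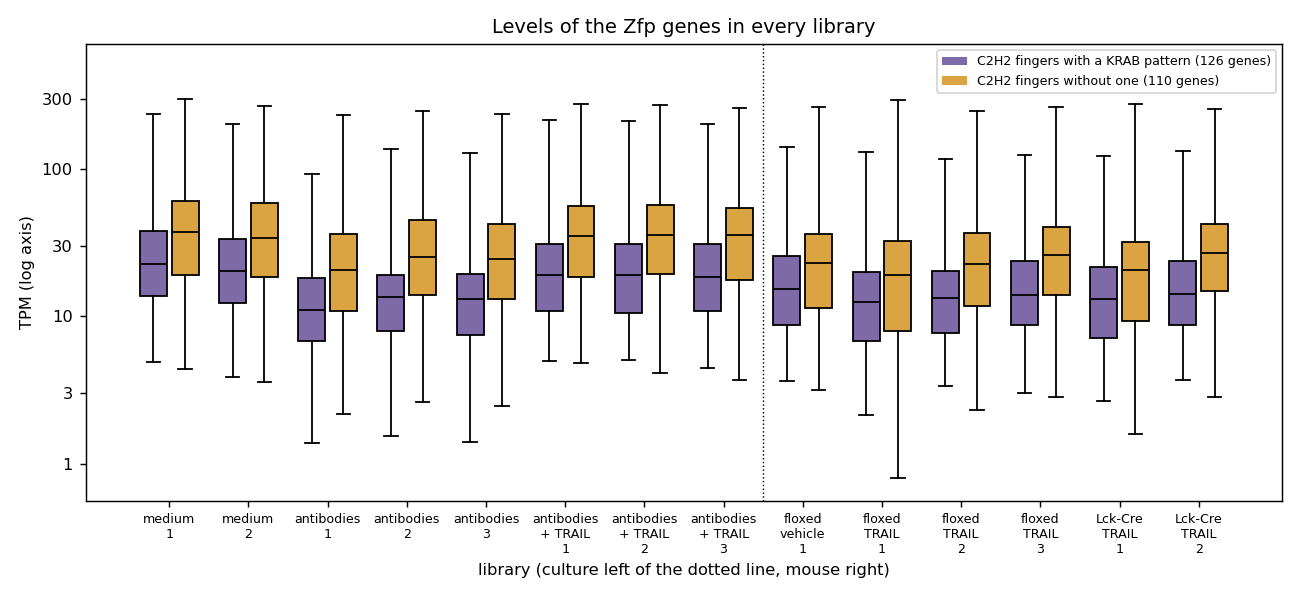
TPM (log axis) of the C2H2 members in each of the 14 libraries; boxes span the quartiles, the line in each box is the median and whiskers reach the lowest and highest gene. The medians of both classes were lower in the 3 antibody libraries (11.0 to 13.6 TPM with a KRAB pattern, 20.5 to 25.3 without) than in medium (20.3 to 22.6 and 34.1 to 37.3). The median of all tested genes was lower there too (16.7 to 19.3 against 23.5 to 24.0 TPM).

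Levels per length differed widely between members. Zfp36l1 was the highest, with a mean of 781 TPM over the culture libraries, followed by Zfp207, a kinetochore and spindle protein, at 262 TPM and Zfp36l2 at 228 TPM. Zfp445, a KRAB protein that maintains imprinted methylation, was at 179 TPM, Zfp740 at 150, Zfp36 at 149, Zfp146 at 132, the RNA-binding protein gene Zfp106 at 131, Zfp871 at 124 and Zfp62 at 118. The 10 highest genes of a culture library held 26.0 to 27.5% of the summed TPM of the members. Over all 242, the sum was 10750 and 10251 TPM in medium, 5676, 6890 and 6559 with antibodies and 9874, 9911 and 9818 with antibodies and TRAIL. The sums in medium and with TRAIL lay close together, and the antibody libraries lay below all of them. The median of all tested genes was also lower with antibodies (16.7, 19.3 and 19.0 TPM). It was 24.0 and 23.5 TPM in medium and 22.7, 23.0 and 22.3 with antibodies and TRAIL.

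Antibodies against medium is the comparison that tests stimulation through CD3 and CD28. By limma on log2(TPM + 1), with a Benjamini-Hochberg adjusted p under 0.05 over all tested genes, 188 of the 242 members fell and 14 rose. The share that fell was 77.7%, against 49.0% of 14035 tested genes, and the share that rose was 5.79%, against 27.5%. The median log2 fold change was -0.71 over the members and -0.32 over all tested genes. Among protein-coding genes at the same level of 5 TPM or more, 47.9% of 9602 fell, with a median of -0.23. Of the 216 members at 5 TPM or more in each group, 165 fell and 12 rose. Because TPM are shares of a total, libraries were also scaled by the median of ratios, which brought the median of all genes to -0.01. Scaled, 146 members fell and 33 rose (81.6% of those passing were lower, against 93.1% unscaled), the members' median was -0.39, and 50.4% of all genes passing were higher, against 35.9% unscaled. Without antibody replicate 1, 190 members fell and 21 rose.

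By protein class, 104 of 126 KRAB members fell and 3 rose, with a median log2 fold change of -0.79. Of the 110 C2H2 members without the pattern, 79 fell and 10 rose, with a median of -0.59. All 3 CCCH members fell. The 48 members with 1 to 5 fingers had a median of -0.45, the 78 with 6 to 10 fingers -0.70, the 68 with 11 to 15 fingers -0.84 and the 42 with 16 or more -0.72. The difference between classes was not tested. Of 8 T cell markers 5 fell and 2 rose (median log2 fold change -0.33), and of 5 erythroid markers tested 4 fell and 1 rose (-1.44). B cell, macrophage and neutrophil markers fell too (10 of 10, 10 of 10 and 9 of 9 tested, median log2 fold changes -2.69, -2.77 and -2.94). A loss of those cells and a lower level in T cells cannot be told apart in these bulk libraries, nor can fewer cells of a type and less RNA per cell.

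**Figure D2:**
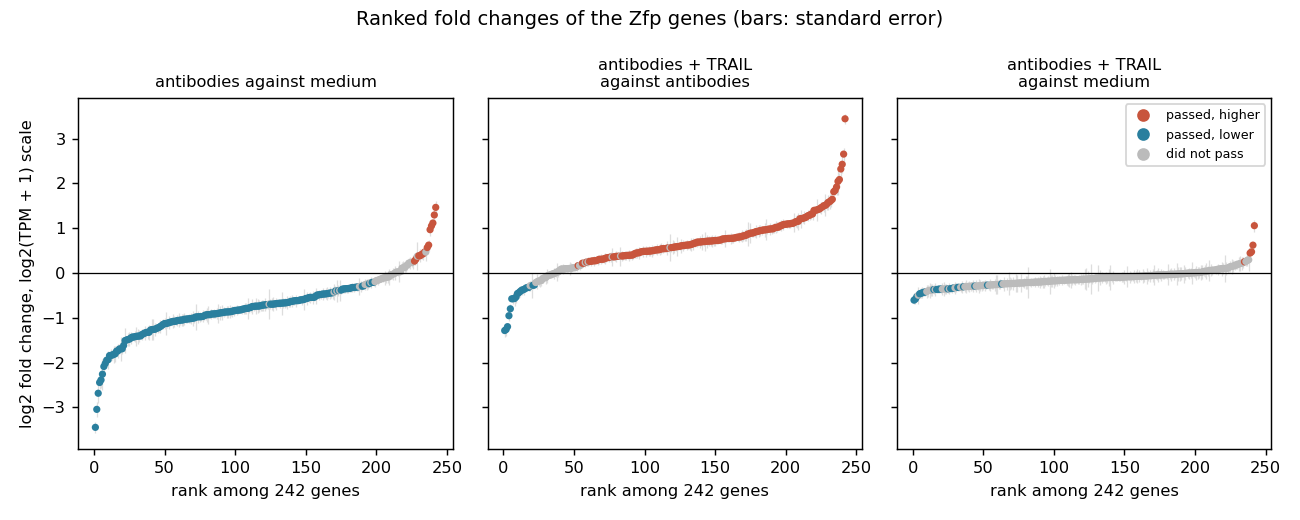
Log2 fold change with standard error of each of the 242 Zfp genes, ranked within each culture comparison; red and blue points passed the limma test, higher and lower. Most genes lie below 0 in the first panel (188 lower, 14 higher), above 0 in the second (183 higher, 20 lower) and near 0 in the last (5 higher, 23 lower).

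The RNA decay genes of the CCCH class were among the most abundant members and fell on stimulation. Zfp36l2 (ENSMUSG00000045817, chr17:84183931-84187947, minus strand, GRCm38) was at 361 and 400 TPM in medium, 98.0, 112 and 106 with antibodies and 234, 247 and 269 with antibodies and TRAIL. The 3 groups did not overlap: it was lowest with antibodies and intermediate with TRAIL. Its log2 fold change with antibodies was -1.84 ± 0.087 SE (adjusted p = 5.29e-07, limma). Zfp36, which encodes tristetraprolin (ENSMUSG00000044786, chr7:28376784-28380253, minus strand), was at 194 and 219 TPM in medium, 75.3, 82.5 and 70.2 with antibodies and 184, 179 and 188 with TRAIL. Every antibody library lay below every other culture library (-1.43 ± 0.084 SE, limma adjusted p = 1.69e-06). Zfp36l1 (ENSMUSG00000021127, chr12:80107754-80113013, minus strand) was at 866 and 918 TPM in medium, 418, 535 and 472 with antibodies and 1001, 1007 and 1035 with TRAIL. It again had its 3 lowest values with antibodies (-0.91 ± 0.098 SE, limma adjusted p = 5.21e-05), and its values with TRAIL exceeded those in medium, a difference that did not pass (0.19, adjusted p = 0.244). Of its transcript, 56.9% of 50-base windows also occur in transcripts of other genes, so its reads could be split between them.

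**Figure D3:**
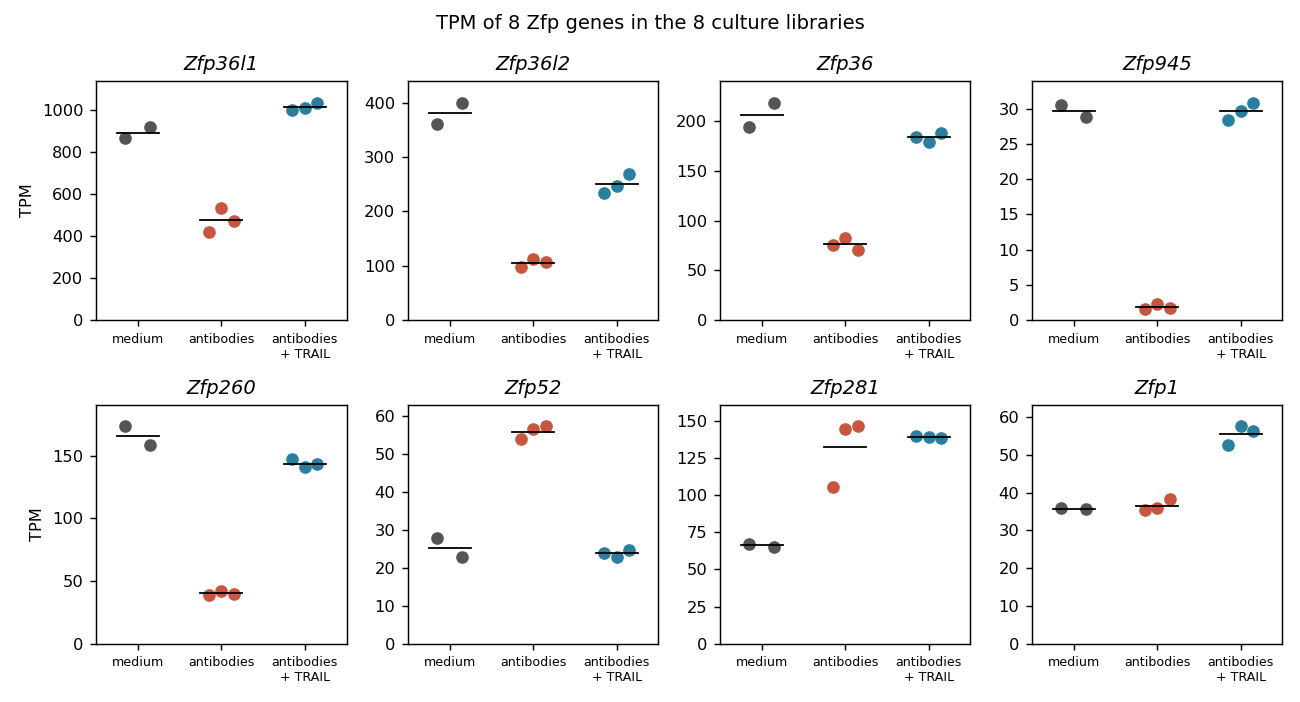
TPM of 8 Zfp genes in each culture library (points; bars are group means). Zfp36l2, Zfp36, Zfp36l1, Zfp945 and Zfp260 are lowest with antibodies, Zfp52 is highest there, Zfp281 is above medium in both stimulated groups and Zfp1 is highest with TRAIL.

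The 10 largest falls with antibodies were those of Zfp945, Zfp287, Zfp831, Zfp354c, Zfp652, Zfp169, Zfp658, Zfp260, Zfp386 and Zfp69. Zfp945, a KRAB gene with 18 fingers, was at 30.5 and 28.8 TPM in medium, 1.52, 2.31 and 1.67 with antibodies and 28.4, 29.7 and 30.9 with antibodies and TRAIL. The antibody libraries lay far below the others, whose values overlapped. The mean was 16.2-fold lower with antibodies than in medium, and the log2 fold change was -3.45 ± 0.12 SE (limma adjusted p = 1.38e-07). Zfp287 followed, with means of 53.5 ± 1.13 TPM in medium (SD, n = 2) and 5.71 ± 1.39 with antibodies (n = 3; -3.04, limma adjusted p = 9.50e-07), and Zfp831 with 33.0 ± 0.525 and 4.44 ± 1.55 TPM (-2.68, limma adjusted p = 9.75e-06). Zfp260, studied in heart development, had the highest level among these, at 173 and 158 TPM in medium, 38.6, 42.4 and 39.4 with antibodies and 147, 141 and 143 with TRAIL. Its groups did not overlap (-2.02 ± 0.069 SE, limma adjusted p = 1.26e-07). The log2 fold changes of Zfp354c, Zfp652, Zfp169, Zfp658, Zfp386 and Zfp69 lay between -2.44 and -1.94. Zfp658 had a mean of 5.41 TPM, near the level of choice, so its changes here and below are tied to that choice. For Zfp169 antibody replicate 1 was at 8.01 TPM and the other antibody libraries at 21.0 and 20.6.

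Of 28 members listed for a known role in lymphocytes or general regulation, Zfp36l2 and Zfp260 included, 20 fell with antibodies and 4 rose, with a median log2 fold change of -0.65. Zfp318, needed for IgD expression in B cells, was at 45.9 and 42.0 TPM in medium and 7.74, 16.7 and 16.3 with antibodies (-1.69, limma adjusted p = 6.07e-04). The B cell markers fell in the same comparison, as did 49.0% of all tested genes, and their part in its fall was not tested. Zfp217, whose human counterpart is amplified in cancers, fell from 114 ± 1.45 to 41.1 ± 8.17 TPM (-1.48), and Zfp335, needed for thymocyte maturation, from 40.7 ± 1.92 to 24.0 ± 7.42 TPM (-0.79, or -0.46 scaled, where it did not pass). Zfp809, a KRAB protein that silences murine retroviruses, fell from 104 ± 8.74 to 55.4 ± 14.5 TPM (-0.93), and Zfp445, named for its level, from 220 ± 24.1 to 120 ± 23.5 TPM (-0.89). Zfp91, a ubiquitin ligase, Zfp143 and Zfp148, promoter-binding factors, and Zfp451, a SUMO ligase, fell by 0.82, 0.87, 0.62 and 0.75 on the log2 scale. The falls of Zfp608 (-1.13), Zfp395 (-0.70), Zfp266 (-0.62), Zfp407 (-0.59) and Zfp292 (-0.67) passed as well, but scaled Zfp407 and Zfp292 did not. Zfp384 fell by 0.52 and did not pass scaled. Zfp207 and Zfp326, a splicing-linked protein gene, had log2 fold changes of -0.24 and -0.21 unscaled, which passed, and 0.10 and 0.12 scaled, which did not. Zfp568, a KRAB repressor of a placental Igf2 transcript, did not pass (-0.08, or 0.24 scaled), nor did Zfp62 (-0.16, or 0.17 scaled). Zfp146 (-0.13) and Zfp622 (-0.12) did not pass unscaled but were higher and passed when scaled (0.20 and 0.21). Zfp609 (0.38) and Zfp106 (0.03) did not pass either, and scaled Zfp609 did (0.70). In Zfp106 and Zfp609, antibody replicate 1 (86.4 and 15.6 TPM) lay below medium and the other antibody libraries (158 and 158, 35.5 and 35.4 TPM) above it.

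Members that rose with antibodies were Zfp239, Zfp593, Zfp52, Zfp367, Zfp281, Zfp948, Zfp422, Zfp131, Zfp580, Zfp446, Zfp27, Zfp706, Zfp330 and Zfp219. Scaling shifted this comparison upward, so it could not turn a rise into a fall. Of the 14, 9 kept the call under all 9 alternatives. Zfp580, Zfp446, Zfp330 and Zfp219 lost it with a library left out, and Zfp27 kept it under only 4 of the 9. Zfp239 was at 4.37 and 3.57 TPM in medium, 11.8, 12.9 and 13.4 with antibodies and 5.26, 5.35 and 3.69 with TRAIL (1.47 ± 0.15 SE, limma adjusted p = 4.56e-05). Its means in medium and with TRAIL lay below the 5 TPM level. It became a member only through the antibody group, where it was high, so its rise is tied to the choice of members. Zfp27 was at 4.88 and 3.87 TPM in medium, 5.01, 7.03 and 6.08 with antibodies and 4.95, 5.04 and 5.75 with TRAIL. Without its antibody values it would have averaged below 5 TPM, so its rise is tied to that choice too. Zfp593, whose yeast counterpart acts in making the large ribosomal subunit, was at 7.43 and 8.66 TPM in medium, 27.1, 18.4 and 19.1 with antibodies and 7.74, 9.23 and 7.46 with TRAIL (1.30, limma adjusted p = 1.97e-04). For both genes the antibody libraries stood above all others. Of the Zfp593 transcript, 64.5% of windows are shared with another gene. Zfp367 rose from 18.0 ± 3.16 to 38.1 ± 1.91 TPM (1.05), Zfp131, a BTB protein, from 73.4 ± 5.93 to 102 ± 5.58 TPM (0.47), Zfp706, studied in embryonic stem cells, from 92.3 ± 1.70 to 121 ± 6.89 TPM (0.39) and Zfp330, a nucleolar protein, from 55.6 ± 2.76 to 69.3 ± 5.77 TPM (0.31).

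Many members lie side by side in the genome, with 58 on chromosome 7, 32 on chromosome 17 and 25 on chromosome 13, and 7 runs held 5 or more members with gaps of at most 500 kb. The run at 67.1 to 67.8 Mb of chromosome 13 held 16 KRAB members, of which 15 fell with antibodies and 0 rose (log2 fold changes -1.83 to -0.25, median -0.89). Over all tested genes 49.0% fell and 27.5% rose. Other genes' transcripts held 65.3% of 50-base windows of Zfp456, 52.2% of Zfp58 and 40.8% of Zfp729b. Zfp85 and Zfp273 shared 23.0% and 22.1% with each other. Reads could be split between such genes, so the 16 need not be separate measurements. Of all 242 members, 40 shared over 20% of windows. The run at 21.0 to 23.6 Mb of chromosome 17 also held 16 members, of which 11 fell and 2 rose. It held both Zfp945, with the largest fall of all members, and Zfp52, a KRAB gene that was at 27.9 and 22.7 TPM in medium, 53.9, 56.4 and 57.1 with antibodies and 23.9, 22.8 and 24.6 with TRAIL. Zfp52 moved against Zfp945: its antibody libraries were the highest (1.12 ± 0.093 SE, limma adjusted p = 1.17e-05). Zfp948 of the same run rose as well, from 8.40 ± 1.95 to 13.3 ± 0.168 TPM (0.62), while Zfp943 and Zfp944 fell (-1.50 and -1.23). Median log2 fold changes of the other 5 runs lay between -1.02 and -0.45.

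**Figure D4:**
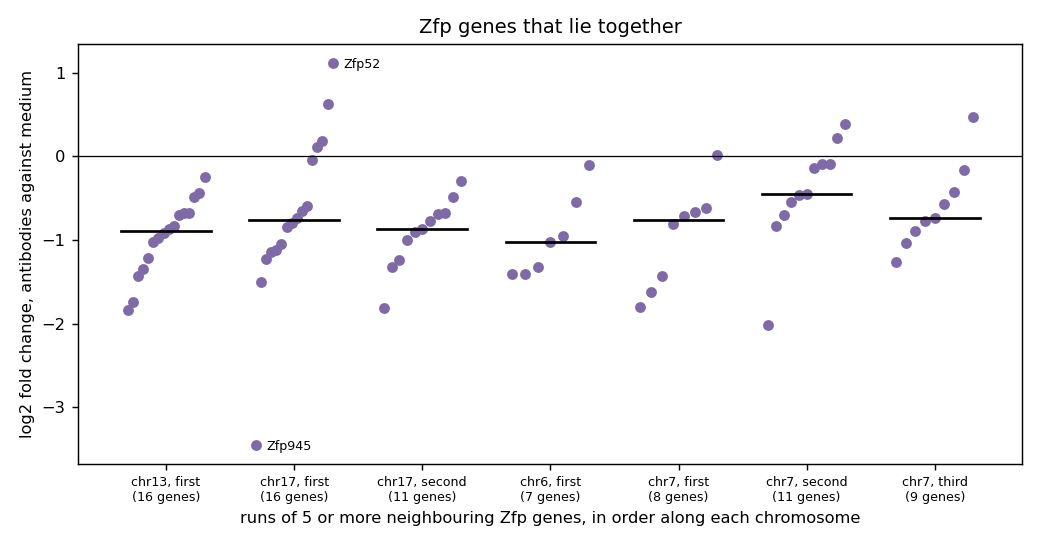
Log2 fold change, antibodies against medium, of the members in 7 runs of neighbouring Zfp genes (points; bars are medians). All 7 medians lie below 0; in the first run of chromosome 17 single genes reach from -3.45 (Zfp945) to 1.12 (Zfp52).

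The 250 bases before the starts of Zfp945 and Zfp52 are shown because these neighbours moved in opposite directions. Both are RefSeq sequences on GRCm38.p6, read 5′ to 3′ along the gene, and capitals mark a searched motif. Zfp945 is at chr17:22867135-22867384 on the minus strand and Zfp52 at chr17:21535289-21535538 on the plus strand.
Zfp945: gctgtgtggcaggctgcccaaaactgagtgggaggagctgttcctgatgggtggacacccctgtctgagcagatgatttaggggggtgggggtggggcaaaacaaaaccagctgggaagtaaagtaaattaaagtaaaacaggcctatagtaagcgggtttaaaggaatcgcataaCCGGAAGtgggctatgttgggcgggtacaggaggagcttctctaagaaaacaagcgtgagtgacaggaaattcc
Zfp52: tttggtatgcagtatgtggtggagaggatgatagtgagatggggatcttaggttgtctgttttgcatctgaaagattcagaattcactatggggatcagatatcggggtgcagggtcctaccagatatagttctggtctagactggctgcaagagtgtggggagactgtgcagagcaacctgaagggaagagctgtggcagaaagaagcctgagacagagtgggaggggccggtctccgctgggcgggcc
The Zfp945 window held 1 match, to the ETS factor motif CCGGAAG, which begins 74 bases before the gene start, and no searched motif matched in the Zfp52 window. The RefSeq table had promoter windows (250 bases before to 50 after a start) for 203 members, 246 windows in all. On either strand CCGGAAG occurred in 20.7% of these windows and in 8.86% of all 32851 windows of that length. The motif TGACGTCA of ATF and CREB factors occurred in 4.07% and 1.79%, and GCGCATG, part of the NRF1 site, in 6.91% and 3.91%. CACGTG, the E-box, was in 5.28% and 7.15%, the AP-1 motif TGANTCA in 4.07% and 7.81%, the FOXO motif GTAAACA in 1.63% and 3.65% and the interferon response core GAAANNGAA in 4.47% and 8.56%. By response to antibodies, CCGGAAG was in 23.8% of 185 windows of members that fell, 12.5% of 16 windows of members that rose and 11.1% of 45 windows of the others. A match is a description of the sequence only, and members' windows also held more G and C (median 55.8% against 52.7%).

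Cells given the antibodies with and without TRAIL were compared next. With TRAIL, 183 members rose (75.6%, against 48.1% of all tested genes) and 20 fell (8.26%, against 28.6%), with a median log2 fold change of 0.58 over the members and 0.25 over all tested genes. Of the 216 members at 5 TPM or more in each group, 160 rose and 18 fell, with a median of 0.55 and a largest rise of 2.66. Scaled, 140 rose and 39 fell (78.2% of those passing were higher, against 90.1% unscaled), with medians of 0.33 and 0.01. It shares the antibody libraries with the first comparison, so values of both are given side by side and no overlap is drawn. Of KRAB members 103 rose and 6 fell (median 0.62), of C2H2 members without the pattern 75 rose and 13 fell (0.52), and the 3 CCCH members rose. Of 8 T cell markers 3 rose and 3 fell (median 0.16), and of 5 erythroid markers tested 4 rose and 0 fell (0.76). B cell, macrophage and neutrophil markers rose as well (10 of 10, 10 of 10 and 9 of 9 tested, medians 2.31, 2.49 and 2.24), and their part in the result was not tested.

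The 10 largest rises with TRAIL were those of Zfp945, Zfp287, Zfp831, Zfp652, Zfp354c, Zfp169, Zfp69, Zfp773, Zfp260 and Zfp658. Zfp945 rose from 1.83 ± 0.417 TPM with antibodies to 29.6 ± 1.25 with antibodies and TRAIL (both SD, n = 3; 3.44 ± 0.11 SE, limma adjusted p = 1.02e-07). Zfp287 rose to 40.6 ± 0.529 TPM (2.66), Zfp831 to 27.5 ± 1.04 TPM (2.43), Zfp260 to 144 ± 3.25 TPM (1.82) and Zfp169 to 66.1 ± 0.773 TPM (2.05). Zfp36 rose to 184 ± 4.49 TPM (1.27), Zfp36l2 to 250 ± 17.5 TPM (1.24) and Zfp36l1 to 1014 ± 17.9 TPM (1.10), with limma adjusted p-values of 1.88e-06, 2.57e-06 and 9.41e-06. Zfp318 (1.51), Zfp217 (1.46), Zfp809 (0.70), Zfp335 (0.70) and Zfp445 (0.82) rose too. Zfp207 rose by 0.17 and was at -0.10 scaled.

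The 10 largest falls with TRAIL were those of Zfp593, Zfp239, Zfp52, Zfp367, Zfp948, Zfp422, Zfp808, Zfp771, Zfp930 and Zfp330. Of the Zfp808 transcript 46.4% of windows are shared with other genes. Zfp593 fell to 8.14 ± 0.950 TPM (-1.28), Zfp239 to 4.77 ± 0.934 TPM (-1.26), Zfp52 to 23.8 ± 0.868 TPM (-1.20) and Zfp367 to 19.2 ± 1.95 TPM (-0.95). The fall of Zfp239 is tied to the choice of members, which it entered only through its antibody values. Zfp131 and Zfp706 also fell (-0.37 and -0.32). Zfp281 did not pass: it was at 105, 144 and 146 TPM with antibodies and 139, 139 and 138 with TRAIL (0.09 ± 0.12 SE, limma adjusted p = 0.510), and the groups overlapped.

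The last culture comparison set antibodies with TRAIL against medium. Here 5 members rose (2.07%, against 7.25% of all tested genes) and 23 fell (9.50%, against 9.93%), so the share that fell was near that of all tested genes. Of the 216 members at 5 TPM or more in each group, 5 rose and 20 fell. Over all members the median log2 fold change was -0.14, against -0.06 over all tested genes. The count of falls was not stable: it was 2 to 7 when any library of either group was left out, 5 with a replicate block, 13 with no filter on low values and 14 scaled. Zfp281, Zfp1, Zfp141, Zfp36l2 and Zfp386 passed under all 9 alternatives.

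Zfp281, a transcription factor that regulates pluripotency genes in embryonic stem cells, was at 67.2 and 65.2 TPM in medium and from 138 to 139 TPM with TRAIL (1.06 ± 0.13 SE, limma adjusted p = 0.00142, with 1.60e-04 to 0.0204 under the alternatives). All 6 stimulated libraries lay above both medium libraries. Zfp1, a KRAB gene, was at 35.8 and 35.5 TPM in medium, 35.4, 35.8 and 38.3 with antibodies and 52.7, 57.5 and 56.4 with TRAIL. The TRAIL libraries stood above all others (0.62 ± 0.070 SE, limma adjusted p = 8.55e-04, with 5.80e-04 to 0.0139 under the alternatives). Zfp141 was at 39.5 and 38.3 TPM in medium, 25.0, 25.4 and 24.9 with antibodies and 55.8, 53.9 and 53.7 with TRAIL, lowest with antibodies and highest with TRAIL (0.47 against medium, limma adjusted p = 0.00158, with 0.00167 to 0.0231 under the alternatives). Zfp513 (0.45) and Zfp622 (0.25), a factor in large ribosomal subunit maturation, rose too, but lost the call under 3 and 6 of the 9 alternatives.

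Zfp36l2 stayed lower with TRAIL than in medium (250 ± 17.5 against 380 ± 27.6 TPM, -0.61, limma adjusted p = 0.00284, with 0.00351 to 0.0368 under the alternatives). Zfp386, a KRAB gene, was at 31.0, 31.0 and 30.9 TPM with TRAIL and 48.3 and 42.0 in medium, without overlap (-0.52, limma adjusted p = 0.00398, with 0.00500 to 0.0470 under the alternatives). The next largest falls were those of Zfp931, Zfp7, Zfp874a, Zfp658, Zfp317, Zfp956, Zfp385a and Zfp692, with log2 fold changes of -0.58 to -0.37. Zfp658 and Zfp385a stood near the level of choice, at means of 5.41 and 5.09 TPM, and were highest in medium. Zfp385a was at 7.54 and 8.20 TPM in medium, 2.29, 2.63 and 2.48 with antibodies and 5.98, 5.98 and 5.64 with TRAIL. The falls of both are tied to the choice of members: without its medium values Zfp385a would have averaged below 5 TPM. Of the Zfp931 transcript 52.6% of windows are shared with other genes. Macrophage markers were lower with TRAIL than in medium (9 of 10 fell, 1 rose, median -0.93), as were neutrophil markers (6 of 9 tested fell, median -0.69), and 4 of 10 B cell markers fell (median -0.19). Their part in these falls was not tested. For Zfp945 the means with TRAIL and in medium were 29.6 ± 1.25 and 29.7 ± 1.19 TPM (-0.00 ± 0.12 SE, limma adjusted p = 0.997).

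The partners of KRAB proteins did not move as 1 group with antibodies: of 26 silencing genes 11 rose and 9 fell, with a median log2 fold change of 0.13, against shares of 27.5% and 49.0% and a median of -0.32 over all tested genes. Trim28, the corepressor that KRAB domains bind, rose from 210 ± 10.5 to 317 ± 5.45 TPM (0.59, limma adjusted p = 2.93e-05) and was at 211 ± 4.06 TPM with TRAIL. Setdb1 did not pass (39.5 ± 2.70 in medium, 37.7 ± 7.08 with antibodies). Of 21 deadenylation and decapping genes, partners of the CCCH members, 13 fell and 2 rose (median -0.39), among them Ddx6, a decapping helicase, from 336 ± 21.9 to 171 ± 36.3 TPM (-0.99). Among other zinc finger families at the same level, 13 of 16 Zkscan and Zscan genes fell and 0 rose (median -0.74), 24 of 36 Zbtb genes fell and 2 rose (-0.65) and 6 of 10 Klf genes fell and 2 rose (-1.03). Of 14 Zc3h genes 6 fell and 2 rose (-0.33), and of 5 Ikzf genes 3 fell and 1 rose (-0.71). The median of the Zc3h genes lay near the -0.32 over all tested genes. With TRAIL against antibodies, 48.1% of all tested genes rose and 28.6% fell. In that comparison 13 of 16 Zkscan and Zscan genes rose and 0 fell, and 27 of 36 Zbtb genes rose and 2 fell. Of 14 Zc3h genes 6 rose and 2 fell, of 10 Klf genes 7 rose and 3 fell, and of 5 Ikzf genes 4 rose and 0 fell.

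In the mouse experiment, limma called 0.0% of 14176 genes higher and 0.0% lower in libraries labelled Lck-Cre than in floxed libraries, both given TRAIL, and the same shares, 0.0% and 0.0%, with TRAIL against vehicle in floxed mice. None of the 242 members passed in either comparison. At an unadjusted p under 0.05 stood 0 and 4 members, and 106 and 566 of all tested genes. The deletion itself was not visible in the whole-gene level of the receptor gene Tnfrsf10b, which was at 2.04 and 3.50 TPM in the libraries labelled Lck-Cre and 1.64, 1.46 and 2.31 in the floxed libraries given TRAIL. The deleted exons are not stated, and the vehicle library, titled floxed, carries a second name that refers to B6 spleen.

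The members' median was 17.8 TPM in the vehicle library, 14.4, 17.1 and 18.5 in the floxed libraries given TRAIL and 15.8 and 18.5 in those labelled Lck-Cre. The vehicle library and replicate 1 of both other groups were sequenced on lane 2, and the rest on lane 4. Zfp36l1 was at 326 TPM with vehicle, 217, 601 and 531 in floxed and 246 and 612 in Lck-Cre libraries, so that all lane 2 values lay below all lane 4 values. Zfp36 was at 151 TPM with vehicle, 215, 347 and 257 in floxed and 172 and 272 in Lck-Cre libraries, with vehicle lowest (0.82 ± 0.38 SE for floxed TRAIL against vehicle, limma adjusted p = 0.972). Zfp36l2, at 338 TPM with vehicle, was at 172, 221 and 341 in floxed and 284 and 385 in Lck-Cre libraries, and all groups overlapped.

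The 5 largest differences between Lck-Cre and floxed libraries were those of Zfp579 (0.55), Zfp808 (-0.51), Zfp36l2 (0.49), Zfp566 (0.44) and Zfp950 (0.42), with standard errors of 0.19 to 0.41 and a limma adjusted p of 1.0 each. Within lane 2 the Zfp808 difference was -1.0 and within lane 4 it was 0.04, while Zfp950 differed by 0.63 and 0.22. The 5 largest differences between floxed TRAIL and vehicle libraries were those of Zfp579 (-1.05), Zfp580 (-1.01), Zfp945 (-0.88), Zfp354c (-0.84) and Zfp36 (0.82), none of which passed (limma adjusted p = 0.972 each). Zfp945 was at 12.2 TPM with vehicle, 5.11, 6.06 and 7.52 in floxed and 8.94 and 7.74 in Lck-Cre libraries, with vehicle highest. Over all members the median difference of Lck-Cre from floxed libraries was 0.03 (0.09 within lane 2 and 0.08 within lane 4), against -0.04 over all tested genes (-0.05 and 0.04). In both lanes 134 members were higher in the Lck-Cre library, 34 were lower in both and 74 differed in direction. Each lane set 1 Lck-Cre library against 1 floxed library (lane 2) or 2 (lane 4). No matching count over all tested genes is given and the split was not tested, so it is no result about the members. The median difference of floxed TRAIL from vehicle was -0.14 over the members and 0.07 over all tested genes (-0.28 and -0.04 within lane 2, with 1 library on each side). The 8 T cell markers summed to 1590 TPM in the vehicle library and 418 to 1320 TPM in the floxed libraries given TRAIL, and 7 erythroid markers listed in both tables to 22000 and 2070 to 5810 TPM. In the libraries labelled Lck-Cre these sums were 972 to 1550 and 4380 to 8100 TPM, and the median T cell marker differed from floxed by 0.59. The part of these cells in the members' values was not tested.

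**Figure D5:**
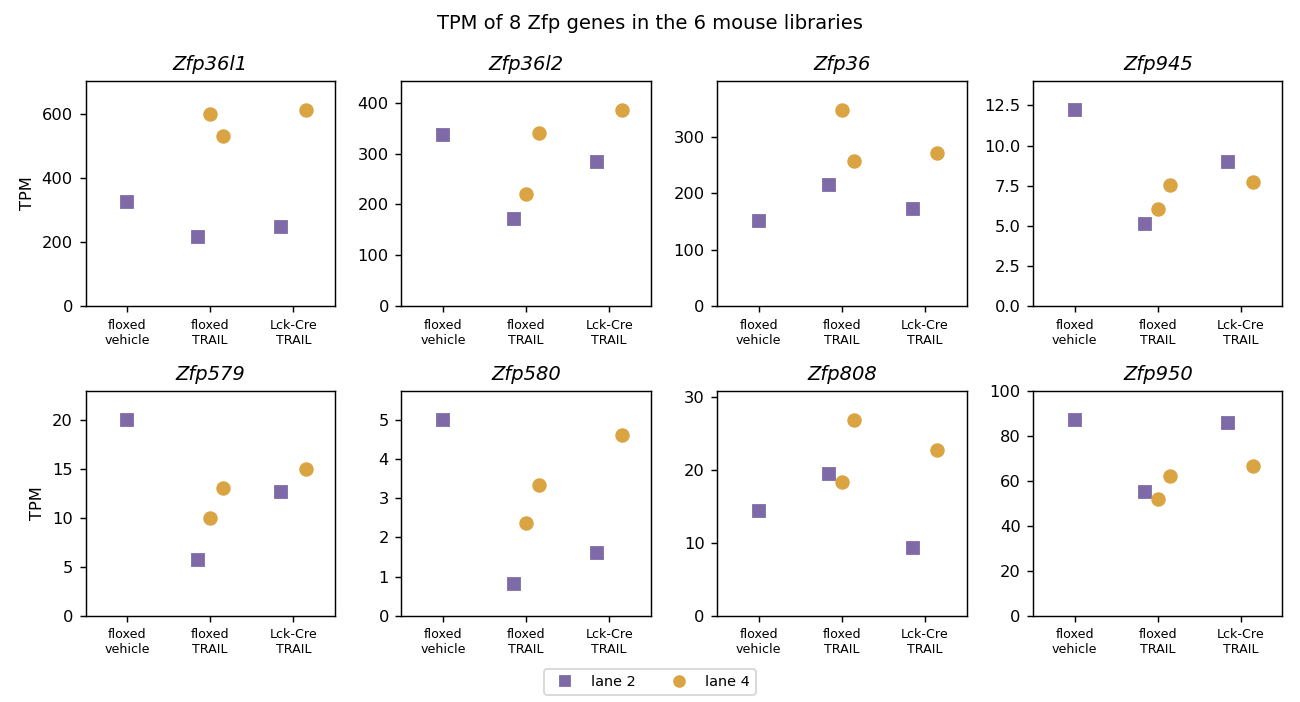
TPM of 8 Zfp genes in the 6 mouse libraries by group, squares for lane 2 and circles for lane 4. Zfp36l1 separates by lane (217 to 326 TPM against 531 to 612), and Zfp945, Zfp579 and Zfp580 are highest in the vehicle library.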

How the data were processed

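The authors deposited expression as TPM, a unit that the culture table names in its header; the mouse table's headers name only libraries, and its unit was inferred from columns that sum to 1000000. The length column gives bases per gene, per the file headers. HISAT2 2.1.0, StringTie 2.1.4, Trimmomatic 0.36, bcl2fastq, DESeq2 1.26.0, SAMtools 1.2 and GRCm38.p6 stand in the submitters' processing notes, with no role given; the strand of counting is not given in the sources used here.

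Genes with a mean of at least 1 TPM over an experiment's libraries were tested with limma 3.58.1 in R 4.3.3 (moderated statistics with a variance trend) on log2(TPM + 1), which understates changes of low genes. All libraries of an experiment entered 1 fit, with 1 coefficient per group; p-values are two-sided, Benjamini-Hochberg adjusted over all tested genes, with a threshold of 0.05. The lone vehicle library was given the spread of the other groups. The procedure was also run on simulated data, for 1 comparison of each experiment and with few genes changed. Most tested genes passed with antibodies against medium, so that run did not match these data. It did not cover the vehicle comparison. All 242 members passed the filter in both experiments. Reads were recovered from TPM times gene length, which fell on whole multiples of 1 step.

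Members and gene lists were chosen with earlier results of these data known. Named are the 10 highest members, the 10 largest passing changes either way per culture comparison, the 5 largest mouse differences, members of known role (28 of 30 symbols listed were members) and those next to the 5 TPM level; Zfp219, Zfp142, Zfp703, Zfp839, Zfp943 and Zfp944 were added after their values were seen. Finger counts used translated GENCODE vM21 coding sequences, in place of a protein table. A C2H2 finger was a C, 2 to 4 residues, C, 12 residues, H, 3 to 5 residues, H, and the KRAB pattern can miss diverged domains. Genes were placed by Ensembl identifier. Erythroid markers were summed over those listed in both tables. Alternatives were another pseudocount, no filter, median-of-ratios scaling, leaving out each replicate, a replicate block and, for the mice, a lane block. In culture, no label says that replicate numbers pair libraries, and the second name of medium replicate 2 carries the number 3. Deviations of same-numbered libraries correlated at -0.13 to 0.08, which cannot exclude pairing with 2 or 3 libraries per group. In the mice, where 2 same-numbered pairs exist, they correlated at 0.70 and 0.22. The differently numbered floxed TRAIL replicate 3 and Lck-Cre replicate 2, both on lane 4, correlated at 0.69. With 2 Lck-Cre libraries the deviations mirror each other, so these values are not independent. Number and lane could not be told apart.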

Additional observations from a re-analysis of the deposited data

How the results depend on the processing

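Counts of members that passed stayed within 1.5 times their value, under all alternatives run, for falls with antibodies and rises with TRAIL against antibodies; leaving out 1 library gave 166 to 194 and 171 to 184. Rises with antibodies went from 14 to 33 scaled and 12 to 21 with a library left out (21 without antibody replicate 1), and falls with TRAIL against antibodies from 20 to 39 scaled and 18 to 26. Against medium, falls with TRAIL went from 23 to 13 without the filter, 14 scaled, 5 with the replicate block and 2 to 7 with a library left out, and its 5 rises to between 3 and 4; the replicate block left 4. The replicate block gave 14 rises and 182 falls with antibodies, and 176 rises and 20 falls with TRAIL against antibodies. Scaling turned the sign of 9 members that fell with antibodies and 4 that rose with TRAIL against antibodies. Among named members that passed in either fit, it did so, antibodies against medium, for Zfp146 (0.20), Zfp207 (0.10), Zfp326 (0.12), Zfp513 (0.01) and Zfp622 (0.21), and, TRAIL against antibodies, for Zfp146 (-0.17) and Zfp207 (-0.10). In that comparison Zfp106 was at 0.02, and at -0.26 without antibody replicate 1 to 0.17 without another antibody replicate. The median over members, antibodies against medium, went from -0.71 to -0.39 scaled. The cause was not tested. Both mouse comparisons gave 0 members under all alternatives, the lane block included; the replicate block was fitted without the vehicle library and only for Lck-Cre against floxed. Whether the replicate numbers pair the culture libraries is not known, so the reading of a call lost under the block was not settled.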
